A study of Mus musculus with 6 samples.

Results

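Mitochondrial ribosomal proteins, taken as every gene of the deposited table whose symbol starts with Mrpl or Mrps followed by a number, numbered 77 of the 14148 genes listed. They were 48 Mrpl genes, named for the large subunit, and 29 Mrps genes, named for the small subunit. Their RNA was measured in microglia, the resident macrophages of the brain, sorted from the hippocampus of male C57BL/6 mice aged 18 months. The lipid droplet-high (LD-high) group held the cells bright for BODIPY, a dye of neutral lipids, and the lipid droplet-low (LD-low) group held the dim ones, with 3 libraries each. All samples were live cells with CD11b and low CD45, each sample pooled the hippocampi of 3 mice, and the labels give no further allele or agent for either group. Nothing in the labels says that the pools hold separate mice, so the p-values speak for the spread among these samples only, and that spread may be technical.

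The mitochondrial ribosome translates the few proteins that mitochondrial DNA encodes, all of them subunits of the respiratory chain and ATP synthase. Its RNAs come from the mitochondrial genome, but its proteins are encoded in the nucleus, made in the cytosol and imported. Many have a counterpart in the bacterial ribosome and others were added in the mitochondrial lineage. Promoters of such genes in mammals are known for sites of NRF1, of ETS family factors such as GABPA, and of YY1.

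The promoters of 5 members are shown because they carry these motifs in different combinations, or none of them, and belong to members whose values follow. Each window runs from 250 bases before to 50 bases after the start that RefSeq gives for the gene, on build GRCm38.p6 and 5′ to 3′ along the gene's own strand. Capitals mark matches, on either strand, to GCGCA, then any base, then GCGC for NRF1, to the letters CCGGAAG for the ETS family and to ATGGCGGC for YY1. The window of Mrpl45, at chr11:97315466-97315765 on the plus strand, holds 3 NRF1 matches. That of Mrpl53, at chr6:83108858-83109157 on the plus strand, holds 2 ETS matches and 1 YY1 match. The Mrps12 window, at chr7:28741772-28742071 on the minus strand, holds 1 ETS match and overlaps the window of Sars2, a mitochondrial seryl-tRNA synthetase gene on the other strand. The Mrps11 window, at chr7:78782881-78783180 on the plus strand, holds 1 YY1 match read on the reverse strand. The Mrpl20 window, at chr4:155802628-155802927 on the plus strand, holds none of the 3.
Mrpl45: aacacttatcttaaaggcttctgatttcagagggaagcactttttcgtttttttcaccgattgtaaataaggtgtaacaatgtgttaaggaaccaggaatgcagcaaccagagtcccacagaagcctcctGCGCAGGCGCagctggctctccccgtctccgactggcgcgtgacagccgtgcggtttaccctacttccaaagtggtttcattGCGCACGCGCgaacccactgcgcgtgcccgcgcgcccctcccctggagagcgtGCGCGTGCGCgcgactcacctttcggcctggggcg
Mrpl53: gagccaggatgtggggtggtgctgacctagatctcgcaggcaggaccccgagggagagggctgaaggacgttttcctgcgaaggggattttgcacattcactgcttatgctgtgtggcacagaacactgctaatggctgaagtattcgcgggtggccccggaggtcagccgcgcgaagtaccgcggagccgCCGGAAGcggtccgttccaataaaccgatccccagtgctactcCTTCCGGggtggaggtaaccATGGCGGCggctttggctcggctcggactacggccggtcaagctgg
Mrps12: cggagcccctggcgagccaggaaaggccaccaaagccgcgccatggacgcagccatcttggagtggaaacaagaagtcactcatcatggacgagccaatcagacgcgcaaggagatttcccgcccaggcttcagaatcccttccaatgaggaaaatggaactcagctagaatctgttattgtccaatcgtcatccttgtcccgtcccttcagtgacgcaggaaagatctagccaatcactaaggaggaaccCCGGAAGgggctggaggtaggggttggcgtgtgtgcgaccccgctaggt
Mrps11: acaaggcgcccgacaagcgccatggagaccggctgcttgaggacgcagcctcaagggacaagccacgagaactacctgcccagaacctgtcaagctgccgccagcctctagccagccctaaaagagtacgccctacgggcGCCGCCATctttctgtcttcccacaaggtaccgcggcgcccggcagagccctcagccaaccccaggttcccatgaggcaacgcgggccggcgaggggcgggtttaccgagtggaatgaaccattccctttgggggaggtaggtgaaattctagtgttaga
Mrpl20: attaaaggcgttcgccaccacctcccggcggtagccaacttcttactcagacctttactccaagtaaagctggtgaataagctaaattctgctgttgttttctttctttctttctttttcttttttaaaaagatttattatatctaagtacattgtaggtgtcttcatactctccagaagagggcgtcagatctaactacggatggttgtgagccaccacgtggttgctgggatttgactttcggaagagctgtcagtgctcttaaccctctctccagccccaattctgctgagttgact

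RefSeq windows were found for 68 of the 77 members, 74 windows in all. At least 1 of the 3 motifs stood in 54.1% of the members' windows, in 29.7% of the windows of tested genes and in 14.1% of all windows of this length. NRF1 letters were in 17.6% of the members' windows, in 10.5% of those of tested genes and in 4.60% of all windows. ETS letters were in 33.8% of the members' windows, 18.1% of those of tested genes and 8.86% of all. YY1 letters were in 16.2% of the members' windows, 4.97% of those of tested genes and 2.24% of all. The letters TATAAA, the core of a TATA box, were in 6.76% of the members' windows, in 6.95% of those of tested genes and in 13.6% of all windows. A match is a description of letters, not a bound site, and no match says only that these letters are not in the window.

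LD-high and LD-low libraries were compared on 15895576 to 38489448 reads in genes per library. Deposited values were read counts divided by a size factor per library, called normalized counts here. Of 11624 genes tested with limma, 390 differed at an adjusted p under 0.05, which is 3.36% of them: LD-high was higher for 178 and lower for 212. That count moved to 231, 201 and 90 without LD-high library 1, 2 or 3, and to 82 and 52 without LD-low library 2 or 3. The microglial genes P2ry12 and Tmem119 had log2 changes of -0.01 and -0.10. Together, 10 microglial markers summed to between 1546511 and 1757555 normalized counts in LD-high libraries and between 1577706 and 1842810 in LD-low libraries. Of these 10, Cx3cr1 had the smallest p, with a log2 change of -0.34 (limma, adjusted p = 0.115). Of 8 neutrophil markers 7 were in the table, and they summed to 0 in all 3 LD-high libraries and to between 1222 and 4563 in LD-low libraries. Those of choroid plexus epithelium summed to between 1719 and 5592 in LD-high libraries and between 366 and 1795 in LD-low libraries, with a narrow overlap. Oligodendrocyte marker sums lay apart, at 5452 to 6013 in LD-high and 4641 to 4894 in LD-low libraries. Of these markers, Mag and Cnp lay wholly higher in LD-high libraries and Mog wholly lower. Astrocyte marker sums lay apart too, at 7933 to 8855 in LD-high and 6461 to 7787 in LD-low libraries, with no marker of either type called. The astrocyte sums were almost all Slc1a3, which averaged 8463 in LD-high and 7183 in LD-low libraries. Aldoc also averaged higher in LD-high libraries, and Slc1a2 averaged lower. Gfap, at means of 5.27 in LD-high and 14.4 in LD-low libraries, and Aqp4, at 0 and 3.30, lay apart on the lower side. Sums of border-associated macrophage or monocyte, neuron and endothelial markers overlapped, though some single markers lay apart. The endothelial sums were almost all Pecam1, whose groups overlapped. Flt1, also endothelial, averaged 2.86 in LD-high and 21.8 in LD-low libraries, a log2 change of -2.94 (limma, adjusted p = 0.0563). The macrophage markers Folr2 and Cbr2 also lay apart on the lower side, and the neuron marker Snap25 on the higher side. The part of these other cell types in the members' values was not tested. In bulk samples, fewer cells that express a gene and less of its RNA per cell cannot be told apart.

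No mitochondrial ribosomal protein gene passed the test between LD-high and LD-low microglia. Limma called 0 of the 77 members, all of which were tested, against 3.36% of all tested genes (1.53% higher and 1.82% lower in LD-high), and edgeR and DESeq2 on the recovered reads also called 0. An unadjusted p under 0.05 was reached by 3 members, Mrpl20, Mrpl28 and Mrpl48, which is 3.90% of them, against 19.8% of all tested genes. Without LD-high library 3 it was reached by 0 members and without LD-high library 2 by 1. The log2 change was above 0 for 41 members and below 0 for 36. Its median was 0.0035, against -0.0056 over all tested genes, and the sign of the members' median turned to -0.039 with equal library totals and to -0.00045 with DESeq2. The members' changes spread less than those of the table. Their standard deviation was 0.12, against 0.41 over all tested genes and 0.32 over the 5759 with a mean count in the members' range. Both comparison sets include extreme genes, down to -9.67 for the neutrophil marker Ngp, which widen their standard deviations. The median absolute change differed less, at 0.079 for the members against 0.14 and 0.13. The spread of the changes was compared without a test.

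The intervals bound how large a change these libraries allow for each member taken singly, given their spread and the deposited scaling. The 95% intervals of limma lay within ±0.5 on the log2 scale for 72 of the 77 members and within ±1 for all 77. The lowest bound of any member was -0.67, for Mrpl53, and the highest was 0.55, for Mrps25. Of all tested genes, 7603 of 11624 had an interval within ±0.5 and 9981 within ±1. An interval within ±0.25 was reached by 9 members, so changes of that size were not bounded for the other 68.

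**Figure D1:**
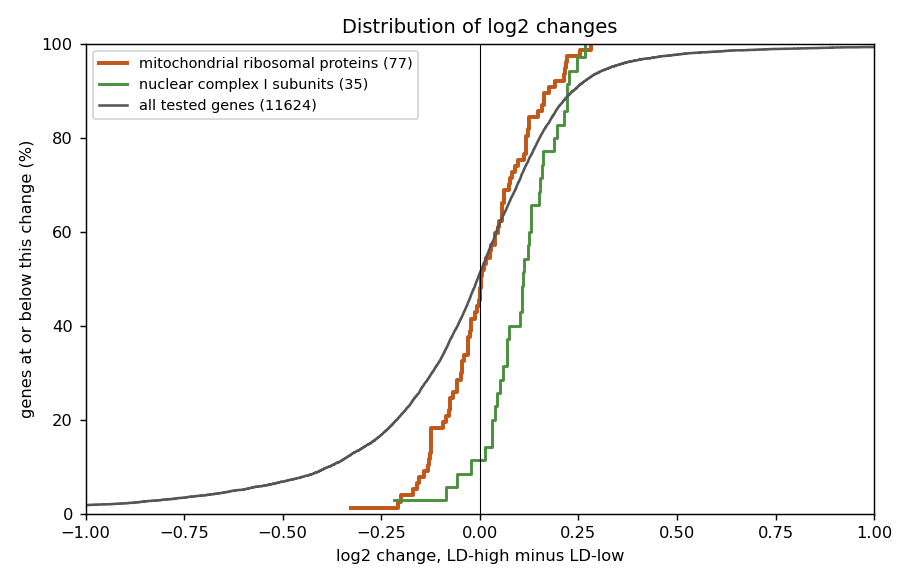
Share of genes in percent (vertical axis) at or below each log2 change, LD-high minus LD-low (horizontal axis), for the 77 members, 35 nuclear complex I subunits and 11624 tested genes. The members' line climbs between -0.33 and 0.28 and crosses the middle near 0, the line of all tested genes has longer tails, and that of complex I lies to the right.

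The members' RNA as a whole took similar amounts in the fractions, with overlapping values. The summed normalized count of the 77 members was 40510, 42003 and 40722 in the LD-high libraries, a mean of 41079 ± 808 (SD, n = 3). In the LD-low libraries it was 39683, 41891 and 40721, a mean of 40765 ± 1104 (SD, n = 3). The groups overlap in this sum, and library 2 was the highest of each group. As a share of all reads in genes, the members took 0.153% ± 0.00568 in LD-high libraries and 0.157% ± 0.00849 in LD-low libraries (SD, n = 3 each). The median deviation of the members from their own means lay between -0.042 and 0.045 on the log2 scale over the 6 libraries. Every member had reads in every library, the fewest being 79.

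In 13 of the 77 members (16.9%) the 3 LD-high values lay wholly above or wholly below the 3 LD-low values, against 24.3% of all tested genes. LD-high was the higher group in 8 of them, namely Mrpl20, Mrpl28, Mrpl40, Mrpl41, Mrpl45, Mrpl48, Mrps14 and Mrps23. It was the lower group in Mrpl14, Mrpl30, Mrpl38, Mrps27 and Mrps31. These shares were not tested against each other. Mrpl40 and Mrpl41, large subunit proteins without a bacterial counterpart, had log2 changes of 0.16 each (limma, adjusted p = 0.470 and 0.473). Mrpl41 came close to overlapping, with 425, 421 and 457 normalized counts in LD-high libraries and 418, 390 and 358 in LD-low libraries. Mrpl30, the counterpart of bacterial L30, had 287, 270 and 274 normalized counts in LD-high libraries and 290, 313 and 307 in LD-low libraries, again with a narrow gap. Its log2 change was -0.13 ± 0.13, and those of the small subunit proteins Mrps27 and Mrps31 were also -0.13 (limma, adjusted p = 0.619, 0.617 and 0.571).

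Among large subunit proteins with a bacterial counterpart, 30 members, 17 changes were above 0 and 13 below, with a median of 0.0076. Mrpl20, the counterpart of bacterial L20, had the largest change above 0 of all members. It had 407, 428 and 421 normalized counts in the LD-high libraries, against 349, 335 and 348 in the LD-low libraries. All 3 LD-high values lay above all 3 LD-low values. The log2 change was 0.28 ± 0.12 (SE; limma, adjusted p = 0.193, unadjusted p = 0.0284), with a 95% interval of 0.03 to 0.53. The gene lies on chromosome 4, from 155177645 to 155183885 in NCBIM37 (mm9), and overlaps no other annotated gene. Its window shown above held none of the 3 motifs, and it was not alone: 40 of the 68 members with a window held at least 1.

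Mrpl28, the counterpart of bacterial L28, had 756, 844 and 833 normalized counts in LD-high libraries and 669, 697 and 723 in LD-low libraries. The groups did not overlap, and the log2 change was 0.22 ± 0.10 (SE; limma, adjusted p = 0.216). Mrpl14, the counterpart of L14, lies at the subunit interface and binds the assembly factor Malsu1. It had 192, 178 and 169 normalized counts in LD-high libraries against 195, 205 and 219 in LD-low libraries. The groups lay apart by a narrow gap, and the log2 change was -0.20 ± 0.16 (limma, adjusted p = 0.509).

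Mrpl12 is the counterpart of the L7/L12 stalk protein, which receives translation factors on the ribosome. Its normalized counts were 764, 683 and 770 in LD-high libraries and 709, 792 and 700 in LD-low libraries. The groups overlap, and the log2 change was 0.01 ± 0.10 (limma, adjusted p = 0.969), with a sign that turned to -0.032 with equal library totals. Mrpl4, the counterpart of L4 and the third highest member per kilobase, had a log2 change of -0.09 (limma, adjusted p = 0.635). Mrpl47, the counterpart of L29, had one of -0.14 (adjusted p = 0.667), and for Mrpl19, the counterpart of L19, it was -0.00037 (adjusted p = 0.999), within an interval of -0.27 to 0.27.

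Large subunit proteins with no bacterial counterpart, 19 members, had 9 changes above 0 and a median of -0.0012. Mrpl45 lies by the exit of the peptide tunnel and helps tether the ribosome to the inner membrane. Its normalized counts were 617, 686 and 690 in LD-high libraries and 583, 602 and 534 in LD-low libraries. All LD-high values were the higher ones, and the log2 change was 0.21 ± 0.10 (limma, adjusted p = 0.270). Mrpl48 had 729, 753 and 741 normalized counts in LD-high libraries and 622, 678 and 609 in LD-low libraries, without overlap, and a log2 change of 0.22 ± 0.10 (limma, adjusted p = 0.218). Both genes overlap another annotated gene and Mrpl48 has a named pseudogene, so reads of the copies or neighbours could be counted with them and their values are uncertain to that extent.

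Mrpl38 and Mrpl53 had values on the other side. Mrpl38 had 795, 755 and 783 normalized counts in LD-high libraries against 821, 1022 and 864 in LD-low libraries. The groups did not overlap, with LD-low library 2 well above the rest, and the log2 change was -0.21 ± 0.10 (limma, adjusted p = 0.269). Mrpl53 had the largest change below 0, -0.33 ± 0.16 (limma, adjusted p = 0.277). Its normalized counts were 182, 244 and 215 in LD-high libraries and 238, 264 and 302 in LD-low libraries, so LD-high library 2 overlapped the LD-low group. In the windows shown above, Mrpl53 carries ETS and YY1 letters and Mrpl45 carries NRF1 letters. Motifs were not compared with changes over the members.

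Some members are named for one subunit and belong to another place. Mrps30, named as a small subunit protein, is a protein of the large subunit. Its normalized counts were 976, 963 and 990 in LD-high libraries and 1033, 913 and 980 in LD-low libraries. The LD-high values lay inside the LD-low range, and the log2 change was 0.0035 (limma, adjusted p = 0.988), turning to -0.039 with equal library totals. Mrps36 is known as a subunit of the 2-oxoglutarate dehydrogenase complex, an enzyme of the citric acid cycle, and had 115 ± 15.0 normalized counts in LD-high libraries and 116 ± 8.58 in LD-low libraries (SD, n = 3 each).

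The S18 family has 3 members in mammals, of which Mrps18a sits in the large subunit and Mrps18b and Mrps18c in the small subunit. Mrps18a had 636 ± 38.0 normalized counts in LD-high libraries and 612 ± 35.6 in LD-low libraries (SD, n = 3 each). Mrps18b had 649 ± 36.9 in LD-high and 664 ± 52.3 in LD-low libraries, and Mrps18c 286 ± 40.7 in LD-high and 294 ± 24.4 in LD-low libraries. The log2 changes of the family were 0.06, -0.03 and -0.05, each smaller than its standard error.

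In the small subunit, the 16 proteins with a bacterial counterpart had 9 changes above 0 and a median of 0.032, and the 9 proteins without one had 5 above 0 and a median of 0.0018. Mrps12, the counterpart of S12 at the decoding centre, had 355, 315 and 334 normalized counts in LD-high libraries and 354, 306 and 310 in LD-low libraries. The groups overlapped, and the log2 change was 0.05 ± 0.13 (limma, adjusted p = 0.879). Mrps14, the counterpart of S14, had 694, 798 and 711 normalized counts in LD-high libraries and 593, 668 and 670 in LD-low libraries. Its groups lay apart, with a log2 change of 0.19 ± 0.10 (limma, adjusted p = 0.322). Mrps9, the counterpart of S9, had 360, 483 and 344 normalized counts in LD-high libraries and 308, 382 and 324 in LD-low libraries. Its log2 change of 0.22 ± 0.15 (limma, adjusted p = 0.447) went with overlapping groups, and library 2 was the highest in each.

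Mrps25 and Mrps23, small subunit proteins with no bacterial counterpart, had log2 changes of 0.25 ± 0.14 and 0.17 ± 0.10 (limma, adjusted p = 0.321 and 0.359). Mrps25 had 371, 408 and 372 normalized counts in LD-high libraries and 314, 377 and 280 in LD-low libraries, with LD-low library 2 inside the LD-high range. Mrps23 had 598, 596 and 614 in LD-high libraries and 546, 503 and 554 in LD-low libraries, and its groups did not overlap. Mrps35 had a log2 change of -0.17 ± 0.15 (limma, adjusted p = 0.559), from 336, 297 and 237 normalized counts in LD-high libraries against 308, 343 and 319 in LD-low libraries.

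**Figure D2:**
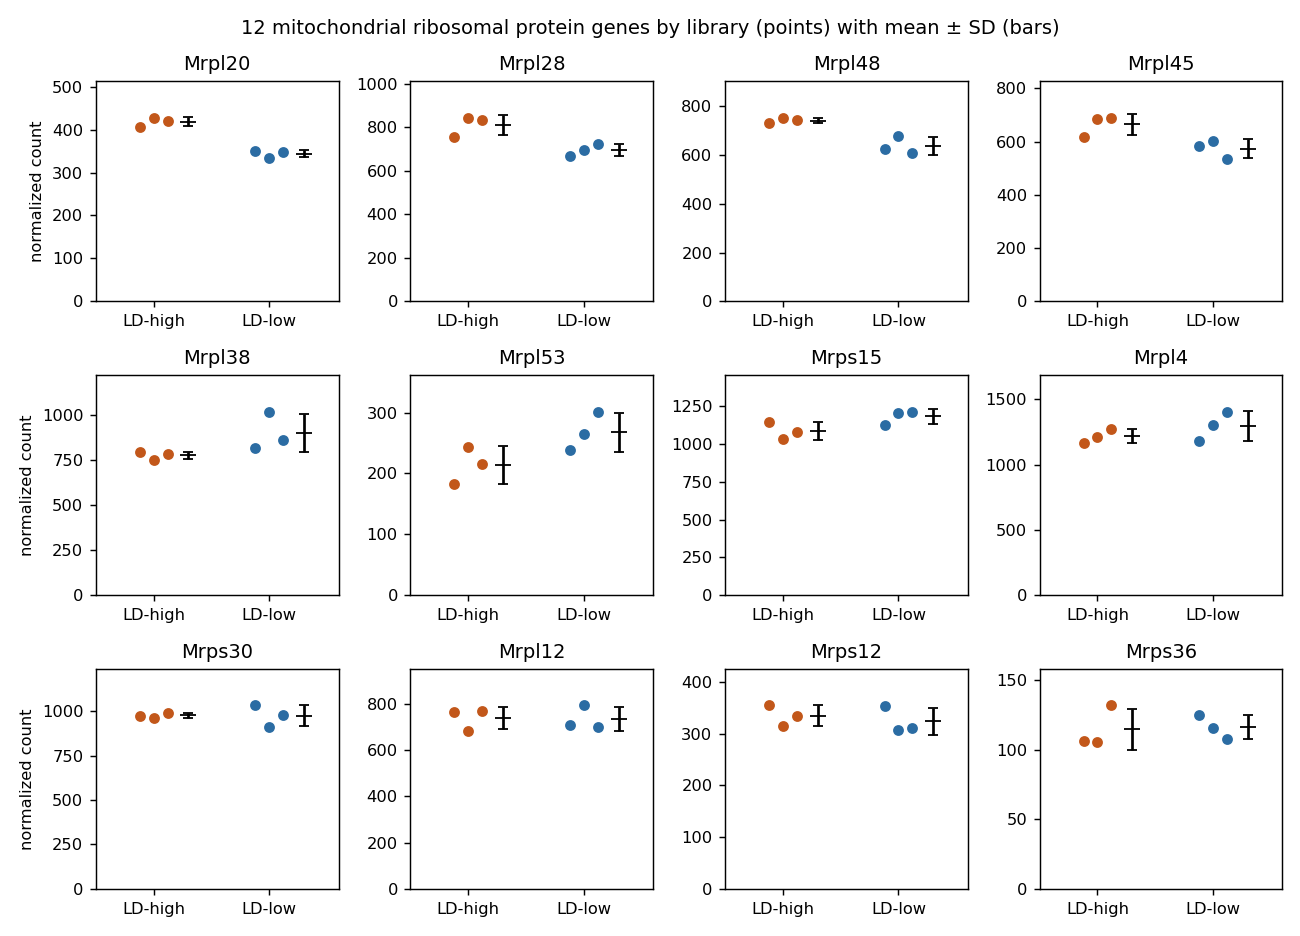
Normalized counts (vertical axis, from 0) of 12 members in the 3 LD-high libraries, left, and the 3 LD-low libraries, right, of each panel. Points are libraries and bars the mean ± SD. Mrpl20, Mrpl28, Mrpl48, Mrpl45 and Mrpl38 show groups that do not overlap, and in the other 7 panels the groups overlap.

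**Figure D3:**
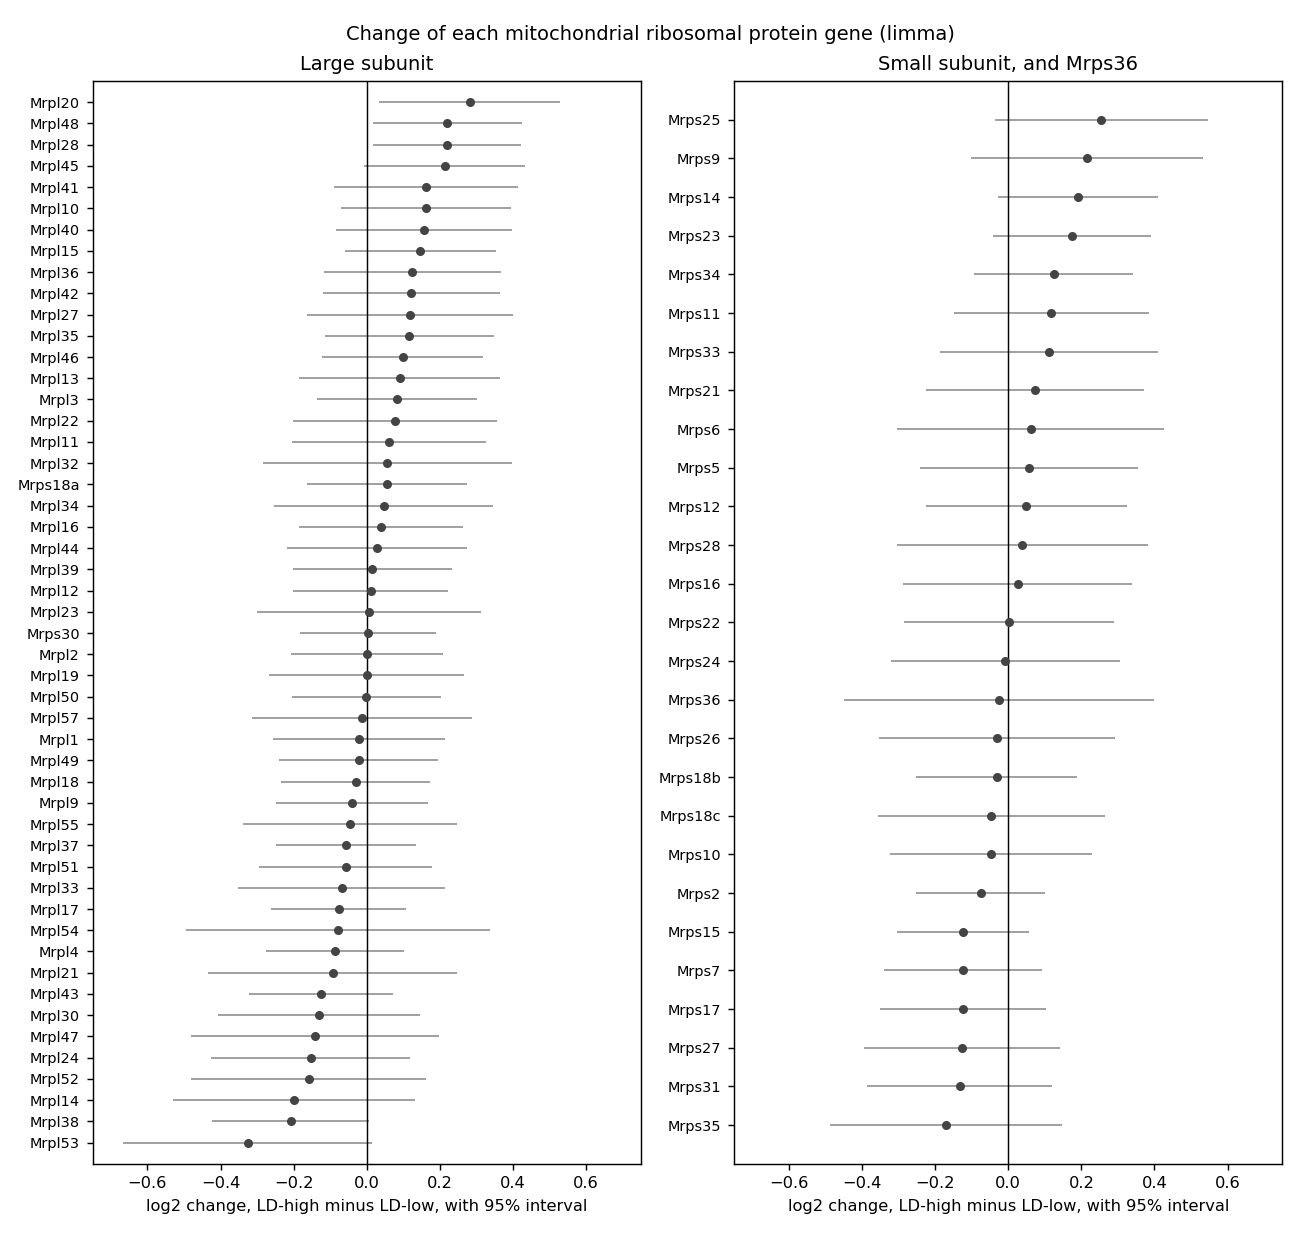
Log2 change (LD-high minus LD-low) of each of the 77 members with its 95% interval from limma. Intervals reach from -0.67 to 0.55, and the members run from Mrpl53 at -0.33 to Mrpl20 at 0.28.

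Levels within the family differed far more than they did between the fractions. Per kilobase of transcript, the mean normalized count ran from 58.2 for Mrps25 to 1210 for Mrps15, a ratio of 20.8, with a median of 367 over the members and 248 over all tested genes. Mrps15, the counterpart of bacterial S15, had 1158 normalized counts per kilobase in LD-high libraries and 1261 in LD-low libraries. It was followed by Mrpl42 at 1028, Mrpl4 at 978, Mrpl43 at 764 and Mrpl52 at 729, and these 5 held 15.2% of the members' summed level per kilobase. At the low end stood Mrpl19 at 80.9, Mrpl47 at 61.4 and Mrps25. The order is a continuum: in only 4 of the 76 pairs of neighbours did the 6 library values not overlap, one of them between Mrpl4 and Mrpl43. The levels rest on the longest annotated transcript of each gene, 5000 bases for Mrpl19 and 6073 for Mrps25, and would be higher where a shorter transcript is the one expressed.

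None of the members at the ends of that order passed the test between fractions. The log2 changes were -0.12 ± 0.08 for Mrps15, 0.12 ± 0.11 for Mrpl42, -0.12 ± 0.09 for Mrpl43 and -0.16 ± 0.15 for Mrpl52 (limma, adjusted p = 0.443, 0.587, 0.483 and 0.596). Mrpl43 and Mrpl52 are proteins of the large subunit with no bacterial counterpart, and so is Mrpl42. Over the 6 libraries the median coefficient of variation of a member was 8.43%.

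**Figure D4:**
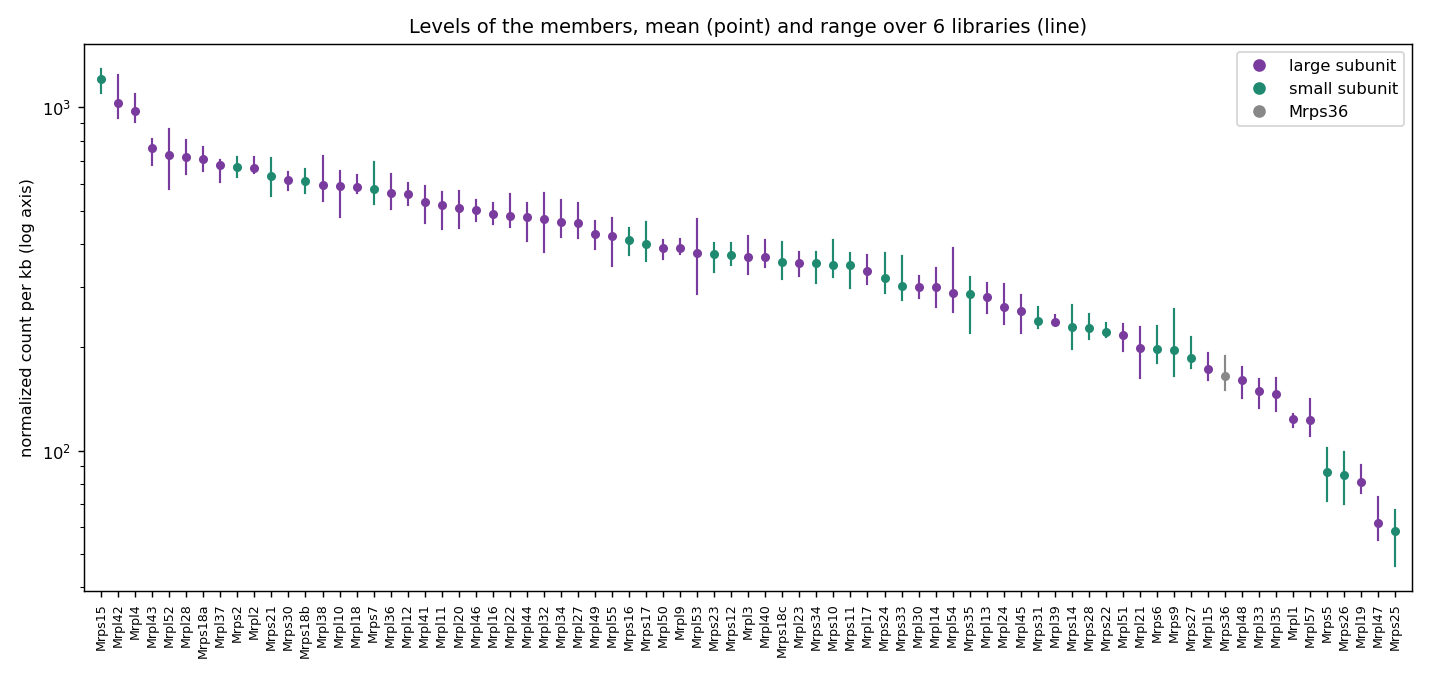
Normalized count per kilobase of transcript (log axis) of each of the 77 members in order of level, with the mean as a point and the range over the 6 libraries as a line, coloured by subunit. Levels run from Mrps15 at 1210 to Mrps25 at 58.2, members of both subunits are spread along the order, and most neighbours overlap.

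The members lie on 17 chromosomes and none on X or Y. Many share a start region with another gene: 29 have a protein-coding gene on the opposite strand that starts within 1000 bases, and 32 overlap another annotated gene. The library kits named in the labels are not known to mark strand, and the sources used here do not give the strand setting of the counting. Reads of overlapping neighbours are therefore uncertain. Among the members named above, that touches Mrpl12, Mrpl14, Mrpl19, Mrpl43, Mrpl45, Mrpl47, Mrpl48, Mrpl53, Mrps9, Mrps18a, Mrps18b, Mrps25 and Mrps27, besides the pair that follows. Mrps11 and Mrpl46 are each other's partner, overlapping head to head on chromosome 7. Their log2 changes were 0.12 ± 0.13 for Mrps11 and 0.10 ± 0.10 for Mrpl46 (limma, adjusted p = 0.649 and 0.648). The other 27 have a partner that is no mitochondrial ribosomal protein, and 24 of these partners were tested.

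Of those 24 partners, limma called 0 higher and 1 lower in LD-high libraries, with 5 at an unadjusted p under 0.05 and 1 called each by edgeR and DESeq2. Over all tested genes, 3.36% were called and 19.8% had an unadjusted p under 0.05, so these counts are near the table's. Their median log2 change was -0.09, against -0.03 for the members they pair with. The change was above 0 for 6 partners and below 0 for 18, against 48.7% above 0 over all tested genes. That split was not tested. The partner called was C920021L13Rik, beside Mrps21, named after its value was seen, with a log2 change of -1.21 (limma, adjusted p = 0.0322). Mrps21 itself had a log2 change of 0.07. Sars2, whose promoter window overlaps that of Mrps12, had 256, 185 and 260 normalized counts in LD-high libraries and 276, 225 and 224 in LD-low libraries, overlapping, and a log2 change of -0.06 ± 0.17 (limma, adjusted p = 0.893). Peo1, the mitochondrial DNA helicase that starts beside Mrpl43, had a log2 change of -0.0036 ± 0.11.

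Other proteins of the mitochondrial ribosome carry names outside the Mrpl and Mrps series, and 6 of them were tested. Limma called 0 of these 6, with 0 at an unadjusted p under 0.05, and edgeR and DESeq2 also called 0. Their median log2 change was -0.02. Dap3, a GTP-binding protein of the small subunit, had 643, 580 and 624 normalized counts in LD-high libraries and 624, 572 and 681 in LD-low libraries, and a log2 change of -0.02 ± 0.11. Chchd1 and Gadd45gip1, parts of the small and the large subunit, had log2 changes of 0.18 and -0.10. The 12S and 16S ribosomal RNAs encoded in mitochondrial DNA were not analysed here.

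Factors that work with the mitochondrial ribosome were read from lists of 12 to 23 genes, in which the 3.36% called over all tested genes would give less than 1 call each, so a count of 0 says little about them. Over all tested genes 19.8% had an unadjusted p under 0.05. Of 12 translation factors tested, limma called 0, edgeR 0 and DESeq2 0, with 2 at an unadjusted p under 0.05. Guf1, a ribosome-bound GTPase, had 469, 577 and 494 normalized counts in LD-high libraries and 579, 709 and 596 in LD-low libraries. All LD-high values were the lower ones, and the log2 change was -0.29 ± 0.12 (limma, adjusted p = 0.192). For Gfm2, which helps recycle ribosomes, it was -0.20 ± 0.09 (adjusted p = 0.228), and for Tufm, the elongation factor that delivers charged tRNA, -0.04.

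Of 19 enzymes that charge mitochondrial tRNAs, limma, edgeR and DESeq2 each called 0, with 0 at an unadjusted p under 0.05, a median of -0.04 and 8 changes above 0. The smallest p-values were those of Aars2, at a log2 change of 0.15, and Pars2, at -0.19, the alanine and proline enzymes. Of 23 factors of ribosome assembly and rRNA modification, the 3 tools each called 0, with 3 at an unadjusted p under 0.05, a median of -0.04 and 9 above 0. Mettl17, an assembly factor of the small subunit, had 748, 841 and 808 normalized counts in LD-high libraries and 904, 923 and 1055 in LD-low libraries, a log2 change of -0.26 ± 0.10 (limma, adjusted p = 0.146). Malsu1, which keeps an assembling large subunit from joining, had 252, 219 and 255 in LD-high libraries and 211, 172 and 174 in LD-low libraries, a log2 change of 0.39 ± 0.16 (adjusted p = 0.187). The groups lay apart for each of these assembly factors, on opposite sides.

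Other ribosomal and respiratory chain genes set the scale. Of 78 tested cytosolic ribosomal protein genes, limma called 0, with 6 at an unadjusted p under 0.05 (7.69%, against 19.8% of all tested genes), and edgeR called 0 and DESeq2 1. Their median log2 change was 0.016 and 43 were above 0, against 0.0035 and 41 of 77 for the mitochondrial ribosomal proteins. Of 35 nuclear-encoded complex I subunits, named Nduf, the 3 tools each called 0, with 3 at an unadjusted p under 0.05 (8.57%). Their median log2 change was 0.11 and 31 of the 35 were above 0, against 48.7% above 0 over all tested genes. LD-high was the higher group in all 12 whose groups lay apart (34.3% of the 35), against 24.3% of all tested genes apart and 12.7% apart with LD-high higher. The difference between these sets and the mitochondrial ribosomal proteins was not tested.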

How the data were processed

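RNA-seq was made from 3 LD-high and 3 LD-low pools. The submitters' processing notes name FastQC 0.11.4 for read quality, STAR 2.5.1b for mapping to mm9 and DESeq2, and the design text says that STAR also made the counts. The sources used here do not give the annotation, the strand setting of the counting or any filter on genes. The deposited values are a signal, counts divided by the authors' size factors (0.599 to 1.43, as recovered here): 100% were whole reads within 0.01 reads.

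The test was limma 3.58.1 (R 4.3.3) with a mean-variance trend on log2(value + 1), which understates changes of low genes, over 11624 genes with at least 10 in at least 3 libraries (2524 left out), 2-sided with Benjamini-Hochberg adjustment over all of them. Alternatives were other pseudocounts (0.5, 5), filters, scalings and corrections, libraries left out, the replicate number as a block, and edgeR 4.0.16 and DESeq2 1.42.0 on recovered reads. The test was checked on simulated data.

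Coordinates, lengths and overlaps came from GENCODE vM1 on NCBIM37, which matched all 77 members, 1 of them through an older symbol, and 13544 genes in all. In the table, 22 rows carry a date as symbol.

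The members and gene lists were chosen with earlier results of these data known. Named members had the smallest p, the 5 largest or smallest changes or extreme levels, or were preset. Of each other list the 2 genes with the smallest p were named. Members and neighbours named for groups that lay apart, for a shared start or for a promoter were chosen after their values were seen.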

Additional observations from a re-analysis of the deposited data

How the results depend on the processing

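No member was called under any of the 20 alternatives run, and the lowest adjusted p of a member was 0.136, for Mrpl20. The median member change became -0.039 with equal library totals, which moved the median of all genes to -0.048, and 0.049 with quantile normalization. It lay between -0.011 and 0.035 when 1 library was left out. The count over all genes, 390, was 237 with quantile normalization, 15 without the trend and 715 with DESeq2. DESeq2 was run on all 14148 genes, and 701 of its calls were among the 11624 tested with limma. With 1 library left out it lay between 52 and 421, the lowest without LD-low library 3. Equal library totals split the calls into 118 higher and 233 lower. Same-numbered libraries had deviations correlating at 0.161, 0.132 and 0.0641, each best with its own number, a hint from the data only. With the replicate number as a block 1090 genes were called, 1228 with a length correction too, and 0 members. The block alone called 1 of the 35 complex I subunits and 2 of the 78 cytosolic ribosomal protein genes. Of the other genes named, Polg was called under both block fits and with equal library totals, Myc under both block fits and Ssbp1 under the second.

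Signs turned for members near 0. With equal library totals Mrpl12 was at -0.032 and Mrps30 at -0.039. With quantile normalization Mrpl19 was at 0.036, Mrps18c at 0.016, Mrps36 at 0.096 and Dap3 at 0.0066. Mrpl12 was at -0.00058 with the length correction, with or without the block, and Mrps30 at -0.0028 with the GC correction and -0.00045 with DESeq2. With 1 library left out, ranges crossed 0 for Mrpl12 (-0.022 to 0.067), Mrpl19 (-0.054 to 0.086), Mrps18b (-0.093 to 0.021), Mrps18c (-0.16 to 0.021), Mrps30 (-0.043 to 0.046), Mrps36 (-0.13 to 0.031), Dap3 (-0.084 to 0.042), Tufm (-0.15 to 0.053), Nrf1 (-0.043 to 0.041), Gabpa (-0.0066 to 0.070) and P2ry12 (-0.050 to 0.042). The sign held but the size moved by over 1.5 times for Mrpl4 (-0.15 to -0.025), Mrpl38 (-0.27 to -0.11), Mrpl42 (0.010 to 0.20), Mrpl43 (-0.19 to -0.071), Mrpl47 (-0.23 to -0.045), Mrpl52 (-0.25 to -0.038), Mrpl53 (-0.43 to -0.22), Mrps9 (0.065 to 0.31), Mrps12 (0.0064 to 0.12), Mrps18a (0.0071 to 0.099), Mrps25 (0.15 to 0.37) and Mrps35 (-0.28 to -0.032). The same held outside the members for Chchd1 (0.074 to 0.34), Gadd45gip1 (-0.15 to -0.039), Gfm2 (-0.29 to -0.12), Tfam (-0.28 to -0.022), Myc (-0.45 to -0.12), Ppargc1b (-0.68 to -0.21), Clpp (-0.28 to -0.13) and Tmem119 (-0.15 to -0.018). The causes were not tested. The fewest reads of a member in a library were 79.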

Other observations

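Genes that copy, transcribe and process mitochondrial DNA and its RNA had no call by limma, edgeR or DESeq2 among 16 tested, with 3 at an unadjusted p under 0.05, 8 changes above 0 and 8 below. Polg, the mitochondrial DNA polymerase, averaged 2869 ± 23.0 normalized counts in LD-high and 3333 ± 209 in LD-low libraries (SD, n = 3 each). Its log2 change was -0.21 ± 0.07 (limma, adjusted p = 0.109). Ssbp1, which coats single-stranded mitochondrial DNA, averaged 849 ± 141 in LD-high and 1038 ± 58.4 in LD-low libraries, a log2 change of -0.30 ± 0.11 (adjusted p = 0.155). Tfam, which packages mitochondrial DNA, had a log2 change of -0.14.

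Of 8 tested regulators of mitochondrial biogenesis, limma, edgeR and DESeq2 each called 0, with 0 at an unadjusted p under 0.05. Nrf1 and Gabpa, whose sites are known from promoters of mitochondrial genes, had log2 changes of -0.0094 ± 0.07 and 0.04 ± 0.08. Myc averaged 1272 ± 286 normalized counts in LD-high and 1532 ± 300 in LD-low libraries, with a log2 change of -0.27 (limma, adjusted p = 0.313). Ppargc1b, a coactivator, had one of -0.39 ± 0.34. Ppargc1a, the related coactivator, did not pass the filter on low values, with a single LD-high library above 0. Of 8 tested genes of the mitochondrial stress response, the 3 tools each called 0, with 1 at an unadjusted p under 0.05. Hspa9, the mitochondrial HSP70, averaged 3756 ± 39.6 normalized counts in LD-high and 3400 ± 95.2 in LD-low libraries, with a log2 change of 0.14 ± 0.06 (limma, adjusted p = 0.234). Clpp, a matrix protease, had a log2 change of -0.23 ± 0.11 (adjusted p = 0.287).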
